A study of Mus musculus with 16 samples.

Results

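Readers of histone acylation are proteins that bind acetylated, butyrylated or crotonylated lysines on histone tails, and 9 of their genes are described here in epithelial cells of the mouse caecum. They were chosen by symbol from a table of 24091 genes. Mllt1, Mllt3, Yeats2 and Yeats4 carry a YEATS domain, Brd2, Brd3, Brd9 and Taf1 carry bromodomains, and Dpf2 carries neither but a double PHD finger, another acyl-lysine binding fold. All 9 had a mean of at least 1 TPM over the libraries and so entered the test, which covered 12155 genes.

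The study concerns butyrylation of histones in the intestine and the part that gut microbes have in it. RNA was sequenced from caecal epithelial cells of C57BL/6 mice, an inbred laboratory strain, in 9 libraries that form 3 groups of 3. Mice of all groups drank 10 g/L Splenda, a sweetener that served as the vehicle. In the group given ampicillin with tributyrin, the water also held 1 g/L ampicillin, an antibiotic, for 7 days, and the mice were then gavaged with tributyrin, the ester of butyrate and glycerol, 6 h before harvest. The group given ampicillin with mock received the same water and a gavage of 25% glycerol. The group given vehicle with mock received Splenda alone and the glycerol gavage. The labels give neither the age nor the sex of the mice. They also do not state that replicate libraries are from different mice, so each p-value reflects the spread between libraries, part of which may be technical. The other 7 samples, of chromatin, were not analysed here.

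A YEATS domain holds its acyl-lysine in a pocket that is open at one end, which is why it takes longer acyl groups such as crotonyl better than a typical bromodomain does. Most bromodomains have a closed pocket and prefer acetyl-lysine, whereas BRD9 and one of the bromodomains of TAF1 are known to accept butyryl-lysine as well. In the large intestine the butyrate made by bacteria both fuels the epithelium and inhibits histone deacetylases, so that these readers meet a chromatin state that the microbiota can alter.

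The values are TPM, transcript abundances that are scaled by transcript length and to a fixed total, so the depth of the libraries is unknown. Over all tested genes, log2 values correlated at 0.976 to 0.981 between libraries of a group and at 0.964 to 0.975 between groups. All 6 epithelial markers were detected in every group, with summed levels of 7136 to 7353 TPM with ampicillin and tributyrin, 6175 to 6498 TPM with ampicillin and mock, and 7884 to 9269 TPM with vehicle. Markers of blood cells were present too: 10 of 10 haematopoietic markers summed to 20.9 to 39.0 TPM with tributyrin, 13.0 to 19.8 TPM with ampicillin and mock, and 16.4 to 19.3 TPM with vehicle. The 3 erythroid markers in the table summed to 94.3 to 133.8 TPM with tributyrin, 13.4 to 36.6 TPM with ampicillin and mock, and 8.31 to 25.3 TPM with vehicle. The 10 fibroblast, muscle and endothelial markers were near 0 apart from Pecam1, which measured 1.11 to 1.66 TPM with tributyrin, 0.511 to 0.636 TPM with ampicillin and mock, and 3.53 to 4.03 TPM with vehicle. The other 9 summed to 0.379 to 0.464 TPM with tributyrin, 0.378 to 0.550 TPM with ampicillin and mock, and 0.345 to 0.372 TPM with vehicle, with Des at 0 with tributyrin and Cdh5 at 0 with ampicillin and mock and with vehicle. The 6 small intestinal and Paneth cell markers, most of whose sum is Fabp2, summed to 1541 to 1597 TPM with tributyrin, 1534 to 1722 TPM with ampicillin and mock, and 1538 to 1915 TPM with vehicle. Vehicle replicate 2 stood apart, with Defa24 at 30.9 TPM, Sis at 5.66 TPM and Lyz1 at 4.14 TPM, against 0.212, 0.222 and 0.219 TPM in vehicle replicate 1 and 8.86, 0.869 and 1.09 TPM in vehicle replicate 3. In both ampicillin groups Defa24 was at 0. Without vehicle replicate 2 the readers that passed the test described below numbered 1 for ampicillin against vehicle, 1 for tributyrin against mock and 3 for ampicillin with tributyrin against vehicle, beside 2, 1 and 3 with it.

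The readers spanned a wide range of levels. Per transcript length, Brd2, a BET protein that binds acetylated histone H4 and recruits the transcription machinery, was the most abundant at a mean of 88.9 TPM over all 9 libraries (range 76.4 to 100.2 TPM), above 86.1% of tested genes. Yeats4, the GAS41 subunit of the SRCAP and TIP60 complexes that place the histone variant H2A.Z, came next at 50.2 TPM (39.6 to 61.9 TPM). Both stood apart, with no overlap of their ranges with the next gene. Brd9 at 28.7 TPM, Dpf2 at 24.7 TPM and Mllt1 at 23.8 TPM lay close together. Brd9 exceeded Dpf2 in 7 of 9 libraries. In the 6 libraries with mock gavage it was 28.5 to 32.6 TPM, clear of Dpf2 at 22.6 to 25.4 TPM, and in those with tributyrin the ranges of Brd9 and Dpf2 overlapped. Dpf2 exceeded Mllt1 in 7 of 9 libraries, with overlapping ranges. Brd3, the BET relative of Brd2, averaged 19.0 TPM. Yeats2 at 10.5 TPM, Taf1 at 9.98 TPM and Mllt3 at 7.14 TPM were lowest. The ranges of Yeats2 and Taf1 overlapped, as did those of Taf1 and Mllt3, although Taf1 was above Mllt3 in every library. Mllt3, the scarcest reader, stood above 29.5% of tested genes.

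**Figure D1:**
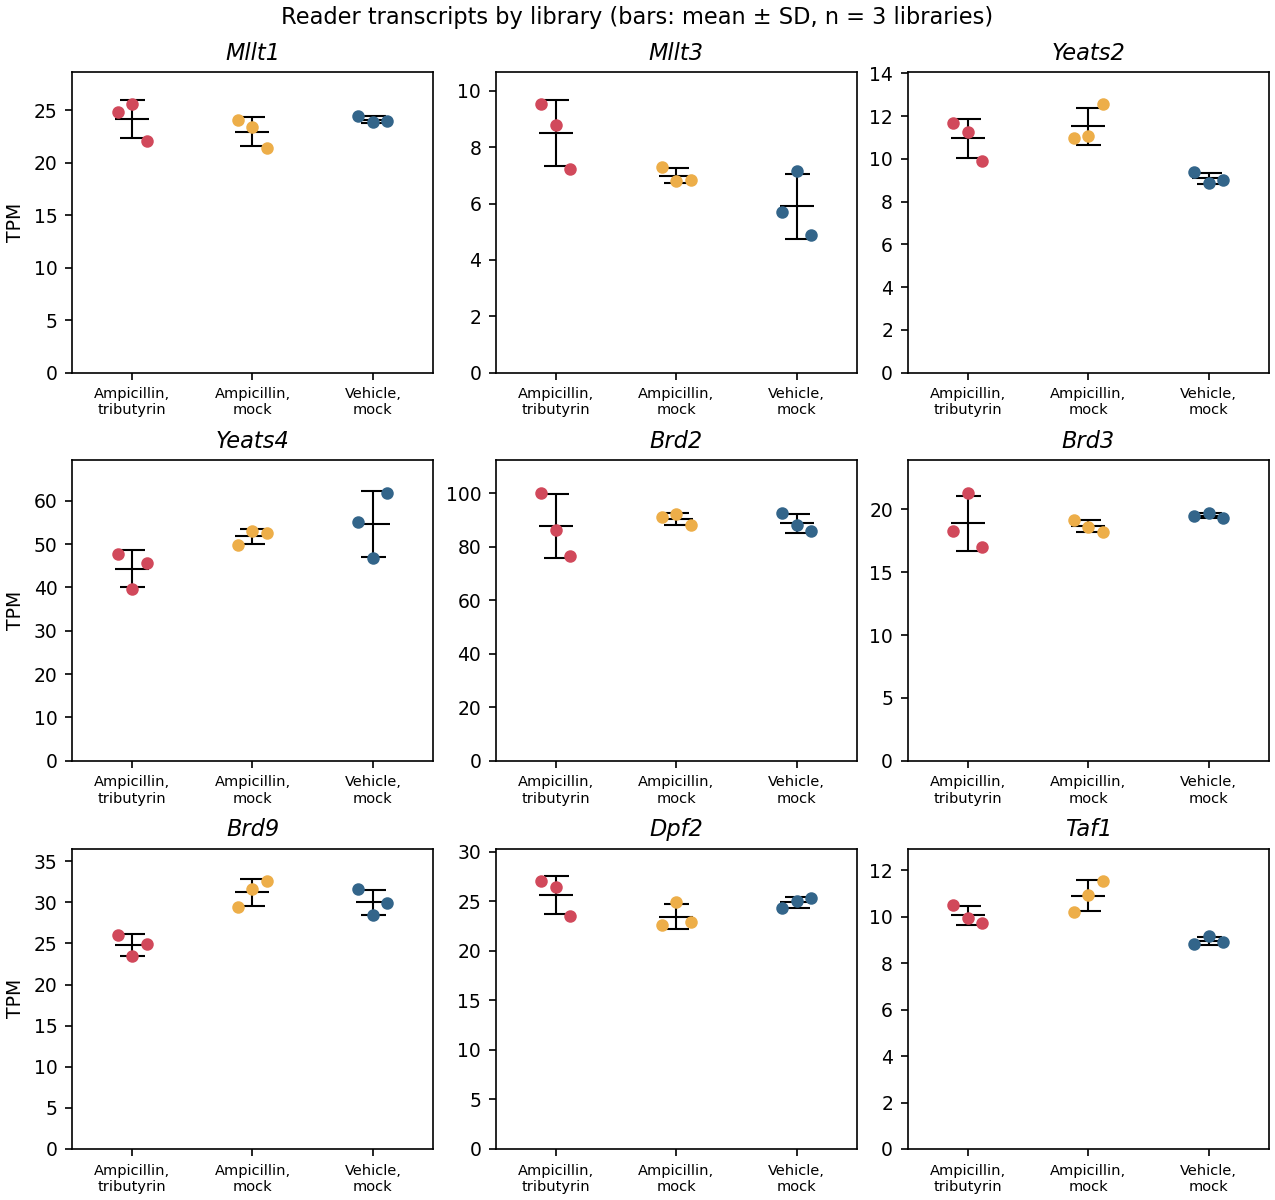
Level of each reader in TPM (vertical axes, each starting at 0) for the 3 libraries of ampicillin with tributyrin, ampicillin with mock and vehicle with mock, with bars for the mean ± SD. Brd9 lies between 23.4 and 26.1 TPM with tributyrin, under all other libraries, while the vehicle libraries of Yeats2 and Taf1 lie under all ampicillin libraries.

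Of the 9 readers, 4 passed the test in at least 1 comparison: Mllt3, Yeats2, Brd9 and Taf1. Promoter windows of 150 bases upstream of a start in the RefSeq promoter table are printed for 3 of them, as the genes with a call whose windows lie clear of a neighbouring gene. They are RefSeq sequences of build GRCm38.p6, and the start is the one farthest upstream in that table, which held all 9 readers. That start can lie within the widest bounds of a gene: it is 10 bases inside those of Yeats2 and 5163 bases inside those of Taf1, so the Taf1 window lies within the annotated gene. For readers not printed it is 32259 bases inside those of Brd3, 207 inside those of Brd2, 121 inside those of Mllt1 and 10 inside those of Brd9. The windows of Brd3 and Brd2, included in the counts below, thus also lie within the annotated genes. Capitals mark, on either strand and with overlaps allowed, the GC box GGGCGG, the CCAAT box and the ETS core CCGGAA.
Mllt3, minus strand, chr4:88033408-88033557: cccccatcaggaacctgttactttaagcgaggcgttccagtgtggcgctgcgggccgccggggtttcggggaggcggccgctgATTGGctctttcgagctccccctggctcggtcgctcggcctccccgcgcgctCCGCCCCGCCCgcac
Yeats2, plus strand, chr16:20140913-20141062: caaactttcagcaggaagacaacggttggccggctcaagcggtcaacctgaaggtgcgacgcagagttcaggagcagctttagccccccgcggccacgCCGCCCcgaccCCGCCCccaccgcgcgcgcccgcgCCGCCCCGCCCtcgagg
Taf1, plus strand, chrX:101532585-101532734: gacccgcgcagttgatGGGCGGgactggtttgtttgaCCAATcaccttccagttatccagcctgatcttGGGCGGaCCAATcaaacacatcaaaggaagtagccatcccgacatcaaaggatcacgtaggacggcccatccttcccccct

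The GC box, the motif of SP and KLF factors, occurred 4 times in the Yeats2 window, 2 times in that of Taf1 and 2 times in that of Mllt3, where its copies share a base. Among all readers 6 had it, against 28.6% of 32851 promoter entries of that length. The CCAAT box, the motif of NF-Y, stood in 3 readers, with 2 copies in Taf1 and 1 in Mllt3, against 24.5% of entries. The ETS core stood in Mllt1, Brd3 and Brd9, against 9.23% of entries. A TATA box, TATAAA, and the short motif TGACG, known from cyclic AMP response elements, were in 0 of the 9 windows, against 7.57% and 13.3% of entries. The Brd9 window, which lies mostly inside the bounds of the neighbouring gene Trip13, held 4 GC boxes and 1 ETS core. CpG dinucleotides numbered 19 in Mllt3, 20 in Yeats2, 18 in Brd9 and 7 in Taf1, against a median of 4 over all entries. The entries span 27025 genes and were not limited to tested genes, whereas all 9 readers were tested. A comparison with the promoters of tested genes alone was not made. These are matches of letters, and no binding was measured here.

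In the descriptions that follow, log2 fold changes of TPM + 1 stand with their SE, and this scale understates changes of scarce transcripts. The adjusted p-values come from limma, with Benjamini-Hochberg adjustment over all 12155 genes, and a gene was called where it was under 0.05. With 3 libraries against 3, an exact permutation test of a single gene cannot give a two-sided p below 0.1. All comparisons share libraries with another, so their results are not independent. The study used bulk cells, in which fewer cells of a type and less RNA per cell cannot be told apart.

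Ampicillin against vehicle, both with mock gavage, asked what 7 days of the antibiotic changed. Yeats2, the reader subunit of the ATAC histone acetyltransferase complex, and Taf1, the largest subunit of the general transcription factor TFIID, were higher with ampicillin, and none of the other 7 readers was called. The call of 2 of 9 readers, or 22.2%, compares with 21.3% of all tested genes, of which 11% were called higher and 10.2% lower. For 3 readers the ampicillin and vehicle libraries were fully separated, against 40.8% of all genes. The median log2 change was 0.03 over the readers and 0.02 over all genes. So the share of readers called was close to that of the whole table. It fell to 0 without ampicillin mock replicate 3 or vehicle replicate 3, and to 1 without ampicillin mock replicate 2 or vehicle replicate 2.

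Yeats2 (gene ID 208146, chromosome 16, 20141053 to 20232573) measured 11.0, 11.1 and 12.5 TPM with ampicillin and mock, against 9.39, 8.86 and 9.03 TPM with vehicle. Every ampicillin library lay above every vehicle library, and the highest of the 3 was replicate 3. The log2 fold change was 0.31 ± 0.074 (adjusted p = 0.0192). Taf1 (gene ID 270627, chromosome X, 101527572 to 101601789) measured 10.2, 10.9 and 11.6 TPM with ampicillin and mock, against 8.84, 9.17 and 8.91 TPM with vehicle. Here too the groups were apart, and the vehicle libraries were close together, at 8.98 ± 0.172 TPM (SD, n = 3). The log2 fold change of Taf1 was 0.25 ± 0.058 (adjusted p = 0.0153). Both changes were smaller than the median size of a called change in this comparison, 0.40. Both calls lay near the threshold. That of Yeats2 was lost without ampicillin mock replicate 3 (adjusted p = 0.0672), vehicle replicate 2 (0.0550) or vehicle replicate 3 (0.0591). That of Taf1 was lost without ampicillin mock replicate 2 (adjusted p = 0.0547), ampicillin mock replicate 3 (0.0594) or vehicle replicate 3 (0.0521). Epithelial marker sums and Pecam1 were lower in every ampicillin mock library than in every vehicle library, as given above, though the epithelial marker Cdh1 overlapped. The other endothelial markers were at or near 0 already with vehicle, so they could not show whether they fell with Pecam1. Cdh5 was at 0 in both groups. Kdr was at 0 to 0.0376 TPM with ampicillin and mock and 0 to 0.0224 TPM with vehicle. The part of these markers in the changes was not tested.

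Over the 9 libraries Yeats2 and Taf1 varied together, at a Pearson r of 0.92, the highest among the 36 pairs of readers. This is a description over libraries that share the same treatment groups. Likeness to other genes was read among tested genes, with small RNAs, predicted and unnamed genes and pseudogenes left out. Those whose log2 values followed Yeats2 most closely were Itsn2 (r = 0.98), Nxf1 (0.97) and Entpd7 (0.96). For Taf1 they were Snx25 and Eif5 (both 0.98) and Uri1 (0.97), all over 9 libraries.

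Tributyrin against mock gavage, both with ampicillin, compared a source of butyrate with 25% glycerol at 6 h. A glycerol content is labelled for the mock gavage alone, so effects of butyrate and of the gavage solution cannot be told apart. Brd9, whose protein defines the non-canonical BAF chromatin remodelling complex, was lower with tributyrin, and it was the only reader called. This is 1 of 9 readers, or 11.1%, against 23.2% of all genes, with 15.6% called higher and 7.54% called lower. The share of calls that were higher, 67.5% over all genes, was 47.1% after quantile normalization and 43.4% after median-of-ratios scaling. Groups did not overlap for 2 readers, Brd9 and Yeats4, against 42.6% of genes. The median log2 change was -0.05 over the readers and 0.05 over all genes. Without tributyrin replicate 3 the count of readers called was 2, because Dpf2 was then called as well (adjusted p = 0.0463).

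Brd9 (gene ID 105246, chromosome 13, 73937801 to 73960895) measured 26.1, 23.4 and 24.9 TPM with ampicillin and tributyrin, against 29.5, 31.6 and 32.6 TPM with ampicillin and mock. The 3 tributyrin libraries were the lowest of all 9. The log2 fold change was -0.32 ± 0.062 (adjusted p = 0.00820), and means were 24.8 ± 1.33 TPM with tributyrin and 31.2 ± 1.62 TPM with mock (SD, n = 3 each). This call held under each of 19 alternatives run, with adjusted p-values between 0.00319 and 0.0344, and so also without each library in turn. Trip13, which begins 5 bases from Brd9 in the annotation, was at 9.49 to 14.3 TPM over all libraries, and no source used here gives the strand setting of the quantification. The erythroid, haematopoietic and epithelial marker sums were higher in every tributyrin library than in every ampicillin mock library, as given above. Of the epithelial markers, Epcam overlapped between these groups, as did Vil1, at 405.3 to 427.4 TPM with tributyrin against 426.7 to 446.4 TPM. Ptprc, Cd3e and Lyz2 were among the haematopoietic markers that overlapped, while Cd3g, Cd8a and Itgam were higher in every tributyrin library. The part of these markers in the fall of Brd9 was not tested. Read among the same genes as for Yeats2, those that followed Brd9 most closely were Adamts18 (r = 0.99), Vps4a (0.97) and Dtd1 (0.97), over 9 libraries.

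Yeats4 (gene ID 64050, chromosome 10, 117215141 to 117224507) measured 47.6, 39.6 and 45.7 TPM with ampicillin and tributyrin, against 49.9, 53.0 and 52.5 TPM with ampicillin and mock. These libraries did not overlap, but the log2 difference of -0.22 ± 0.10 was not called (adjusted p = 0.149), with a 95% interval of -0.46 to 0.01. Mllt3 and Dpf2 had positive differences of 0.24 ± 0.13 (adjusted p = 0.202) and 0.12 ± 0.064 (adjusted p = 0.197) that were not called either. Mllt3 passed with array weights (adjusted p = 0.0483). Taf1 had a difference of -0.10 ± 0.058 (adjusted p = 0.221), which passed after quantile normalization, at -0.17 (adjusted p = 0.0240), and after median-of-ratios scaling, at -0.18 (adjusted p = 0.0288). A difference that was not called is not shown to be absent.

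Ampicillin with tributyrin against vehicle with mock gave the state after both treatments. Mllt3 and Yeats2 were higher and Brd9 was lower than with vehicle. These are 3 of 9 readers, or 33.3%, against 28.3% of all genes, with 19.1% called higher and 9.21% called lower. Of all calls 67.5% were higher, a share that was 50.3% after quantile normalization and 41.1% after median-of-ratios scaling. Groups did not overlap for 4 readers, against 41.7% of genes. The median log2 change was 0.0006 over the readers and 0.08 over all genes. The count of readers called was 1 without tributyrin replicate 1, vehicle replicate 1 or vehicle replicate 3, and 0 without tributyrin replicate 2. Erythroid and haematopoietic marker sums were higher, and epithelial sums and Pecam1 lower, in every tributyrin library than in every vehicle library. Of the haematopoietic markers, Cd3g, Cd8a and Itgam were higher in every tributyrin library, while Ptprc, Cd3e and Lyz2 were among those that overlapped. Single epithelial markers did not all follow the sum of their list. Krt8, Krt20, Epcam and Vil1 were lower in every tributyrin library. Cdh1 (309.2 to 329.8 against 251.6 to 291.6 TPM) and Krt18 (496.8 to 556.1 against 420.9 to 478.3 TPM) were higher. The part of these markers in the results was not tested.

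Mllt3 (gene ID 70122, chromosome 4, 87769925 to 88033407) encodes AF9, the YEATS subunit that ties the super elongation complex and the methyltransferase DOT1L to acylated histone H3. It measured 9.52, 8.79 and 7.22 TPM with ampicillin and tributyrin, 7.31, 6.82 and 6.85 TPM with ampicillin and mock, and 5.69, 7.16 and 4.88 TPM with vehicle. The tributyrin libraries lay above the vehicle libraries without overlap, by a narrow margin at vehicle replicate 2, and the mock libraries lay between the group means. The log2 fold change of ampicillin with tributyrin against vehicle was 0.47 ± 0.13 (adjusted p = 0.0280), the largest among the readers in any comparison. The call was lost without tributyrin replicate 1 (adjusted p = 0.0889), tributyrin replicate 2 (0.0864), vehicle replicate 1 (0.0779) or vehicle replicate 3 (0.0827). It was also lost in a fit to the libraries of these 2 groups alone (adjusted p = 0.0718). Neither step alone was called for Mllt3, with 0.22 ± 0.13 for ampicillin against vehicle (adjusted p = 0.267). Read among the same genes as for Yeats2, Car13 (r = 0.97), Fam222b (0.97) and Cxcl10 (0.96) followed Mllt3 most closely over the 9 libraries.

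Yeats2 measured 11.7, 11.3 and 9.92 TPM with ampicillin and tributyrin, against the 9.39, 8.86 and 9.03 TPM with vehicle. Both sets were apart, with tributyrin replicate 3 nearest to vehicle. The log2 fold change of 0.24 ± 0.074 passed narrowly (adjusted p = 0.0412). Of 19 alternatives 13 lost that call, among them the fits without tributyrin replicate 1 (adjusted p = 0.123), tributyrin replicate 2 (0.123), ampicillin mock replicate 1 (0.0539), ampicillin mock replicate 2 (0.0612), vehicle replicate 1 (0.0717), vehicle replicate 2 (0.0976) or vehicle replicate 3 (0.102). Between tributyrin and mock Yeats2 differed by -0.07 ± 0.074 (adjusted p = 0.551).

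Brd9 was lower with ampicillin and tributyrin than with vehicle, where it measured 31.6, 28.5 and 29.9 TPM. All tributyrin libraries lay under these, and the log2 fold change was -0.26 ± 0.062 (adjusted p = 0.0150). The call was lost without tributyrin replicate 2 (adjusted p = 0.0562). Ampicillin alone gave Brd9 a difference of 0.06 ± 0.062 (adjusted p = 0.573). Yeats4, at 55.2, 46.8 and 61.9 TPM with vehicle, had a log2 difference of -0.29 ± 0.10 for ampicillin with tributyrin that was not called (adjusted p = 0.0662). Vehicle replicate 2 lay inside the range of the tributyrin libraries, and without it the difference passed (adjusted p = 0.0182). It also passed after median-of-ratios scaling (adjusted p = 0.0322), without small RNA entries (0.0276) and with array weights (0.0226). Defa24, Sis and Lyz1 were highest in vehicle replicate 2. Vehicle replicate 3, which held less of them, had the highest Yeats4 value. A link of these transcripts to Yeats4 was not tested. Taf1 measured 10.5, 9.93 and 9.72 TPM with ampicillin and tributyrin, above all vehicle libraries, and its difference of 0.15 ± 0.058 was not called (adjusted p = 0.0885).

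**Figure D2:**
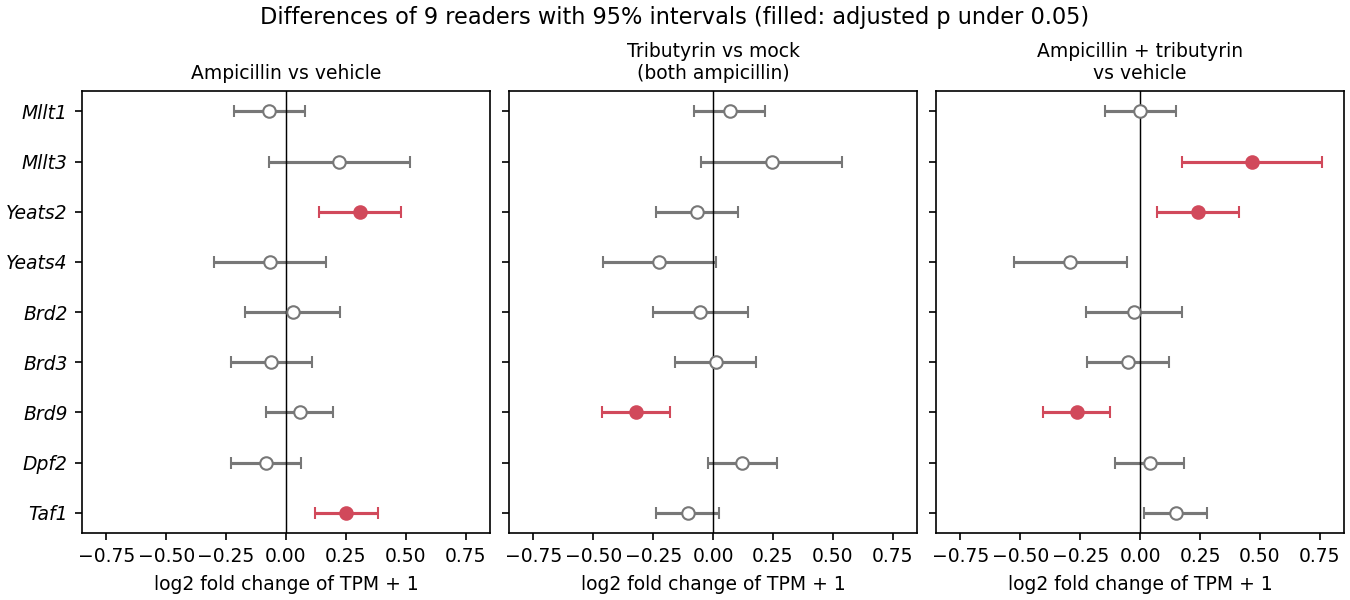
Log2 fold change of TPM + 1 (horizontal axes) of the 9 readers in the 3 comparisons, with 95% intervals from limma and filled points for an adjusted p under 0.05. Yeats2 and Taf1 are filled for ampicillin against vehicle, Brd9 alone for tributyrin against mock, and Mllt3, Yeats2 and Brd9 for ampicillin with tributyrin against vehicle.

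Mllt1, Brd2, Brd3 and Dpf2 were called in no comparison, like Yeats4. Mllt1 (gene ID 64144, chromosome 17, 56892608 to 56935509) encodes ENL, the paralogue of AF9 in the same elongation complexes. It measured 24.9, 25.6 and 22.1 TPM with ampicillin and tributyrin, 24.1, 23.4 and 21.4 TPM with ampicillin and mock, and 24.5, 23.9 and 24.0 TPM with vehicle. The 3 groups overlapped, and the smallest spread was that of the vehicle libraries, at 0.339 TPM (SD, n = 3). Brd2 (gene ID 14312, chromosome 17, 34112019 to 34122814) measured 100.2, 86.4 and 76.4 TPM with tributyrin, 90.9, 92.3 and 88.0 TPM with ampicillin and mock, and 92.5, 88.0 and 85.7 TPM with vehicle. The tributyrin libraries of Brd2 held both the highest and the lowest of its values. Brd2 overlaps H2-DMa by 3122 bases on the opposite strand, and H2-DMa measured 2.53 to 3.93 TPM over all libraries. Brd3 (gene ID 67382, chromosome 2, 27445576 to 27507657) measured 18.3, 21.3 and 17.0 TPM with tributyrin, 19.2, 18.6 and 18.2 TPM with ampicillin and mock, and 19.5, 19.7 and 19.3 TPM with vehicle. The mock libraries of Brd3 lay just under those with vehicle, without overlap, at a log2 difference of -0.06 ± 0.075 (adjusted p = 0.623). Dpf2 (gene ID 19708, chromosome 19, 5896516 to 5912871), a subunit of the canonical BAF complex, measured 27.1, 26.4 and 23.5 TPM with tributyrin, 22.6, 24.9 and 22.9 TPM with ampicillin and mock, and 24.3, 25.1 and 25.4 TPM with vehicle. Over these 4 genes and the 3 comparisons, log2 differences lay between -0.08 and 0.12, and the bounds of their 95% intervals between -0.25 and 0.27.

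The paralogue pairs were also compared inside each library, where any factor that scales a whole library cancels. The ratio of Mllt3 to Mllt1 was 0.383, 0.344 and 0.327 with ampicillin and tributyrin, 0.303, 0.291 and 0.319 with ampicillin and mock, and 0.232, 0.300 and 0.203 with vehicle. The tributyrin ratios exceeded all others, while those with mock and with vehicle overlapped at vehicle replicate 2. On the log2 scale the ratio with tributyrin differed by 0.20 from that with mock and by 0.53 from that with vehicle, each with a two-sided exact permutation p = 0.1, the smallest that 3 libraries against 3 can give, and the ratio with mock differed by 0.33 from that with vehicle (exact permutation p = 0.2). Adjusted over the 6 comparisons of both pairs, all 3 stood at 0.3. The ratio of Brd3 to Brd2 was 0.183, 0.247 and 0.223 with tributyrin, 0.211, 0.202 and 0.207 with ampicillin and mock, and 0.211, 0.224 and 0.225 with vehicle. The tributyrin ratios spanned both other groups, and the log2 differences were 0.06 for tributyrin against mock (exact permutation p = 0.7), -0.03 for ampicillin with tributyrin against vehicle (0.8) and -0.09 for ampicillin with mock against vehicle (0.2).

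**Figure D3:**
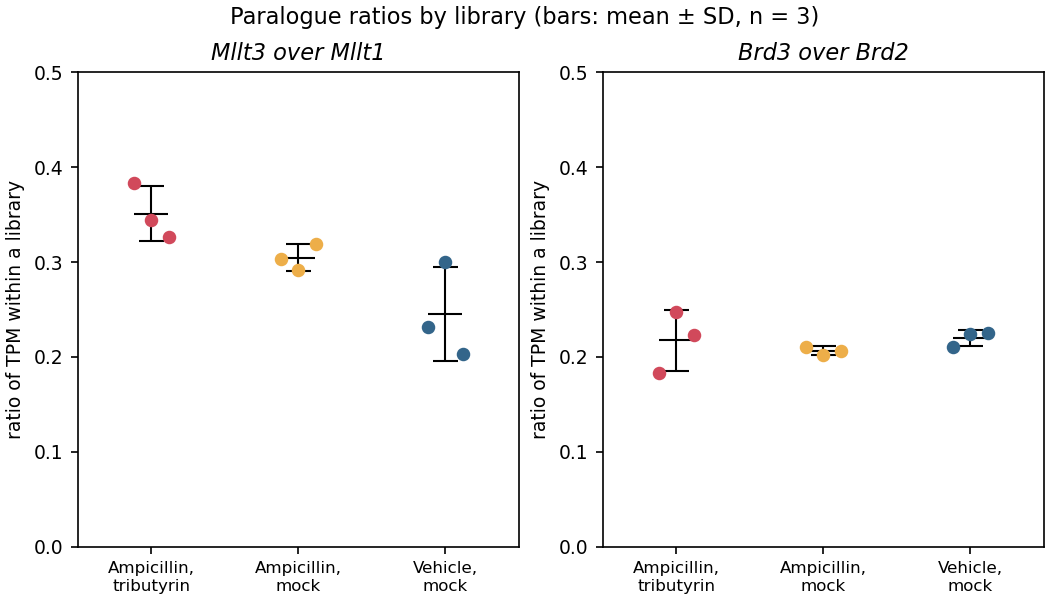
Ratio of TPM within a library (vertical axes from 0) for Mllt3 over Mllt1 and for Brd3 over Brd2, for 3 libraries per group with the mean ± SD. The 3 tributyrin libraries hold the highest ratios of Mllt3 to Mllt1, from 0.327 to 0.383, while the ratios of Brd3 to Brd2 overlap between tributyrin and both other groups.

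Among the readers, Yeats4 and Brd9 varied together over the 9 libraries (r = 0.80), as did Mllt1 and Brd3 (0.74). Mllt3 ran opposite to Yeats4 (-0.84) and to Brd9 (-0.64). These coefficients describe 9 libraries in 3 treatment groups and carry no test.

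The genes of the complexes in which the readers work were read from lists of their known subunits. Mllt1 and Mllt3 belong to the super elongation complex, which releases paused RNA polymerase II through the kinase P-TEFb, and to the DOT1L complex. Of 17 tested partners there, 1 was higher and 0 lower with ampicillin against vehicle, 3 were higher and 1 lower with tributyrin against mock, and 5 were higher and 1 lower with ampicillin and tributyrin against vehicle. The shares called were 5.88%, 23.5% and 35.3%, against 21.3%, 23.2% and 28.3% of all genes. Medians were -0.002, 0.09 and 0.13 in these comparisons, beside 0.02, 0.05 and 0.08 over all genes. Ell3, an elongation factor of the complex, measured 4.92, 5.86 and 5.31 TPM with tributyrin, against 3.45, 2.41 and 3.09 TPM with ampicillin and mock. All tributyrin libraries were higher, and Ell3 rose by 0.68 ± 0.11 (adjusted p = 0.00419). Hexim1, the inhibitor of P-TEFb named for its induction by hexamethylene bisacetamide, measured 53.5, 50.1 and 48.2 TPM with tributyrin, against 37.2, 39.0 and 36.6 TPM with mock. It rose by 0.42 ± 0.081 (adjusted p = 0.00832), without overlap. Larp7, which holds the 7SK RNA of the inactive P-TEFb particle, was lower with ampicillin and tributyrin than with vehicle, at 29.7, 26.0 and 26.4 TPM against 37.8, 32.0 and 34.7 TPM. Its log2 change was -0.34 ± 0.072 (adjusted p = 0.0107). These calls of Ell3, Hexim1 and Larp7 held under every alternative run. Larp7 was also lower with tributyrin than with mock, by -0.24 ± 0.072 (adjusted p = 0.0468), a call lost in 8 of 19 alternatives. Mllt6, the gene of AF17, rose by 0.27 ± 0.072 with tributyrin against mock (adjusted p = 0.0294), a call lost in 6 of 19 alternatives and without any of tributyrin replicate 2 (0.0985), ampicillin mock replicate 1 (0.0926) and ampicillin mock replicate 3. The P-TEFb subunits Cdk9, at 0.19 ± 0.054 for ampicillin against vehicle (adjusted p = 0.0403), and Ccnt2, at 0.43 ± 0.11 for ampicillin with tributyrin against vehicle (adjusted p = 0.0192), were also called, and lost the call in 11 and 4 of 19 alternatives. Eaf2, a cofactor of ELL proteins, at 0.45 ± 0.14 in the same comparison as Ccnt2 (adjusted p = 0.0445), lost it in 12 of 18.

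Yeats2 sits in ATAC with 10 partners tested, of which 1 was higher with ampicillin against vehicle, 1 was higher and 1 lower with tributyrin against mock, and 1 was higher with ampicillin and tributyrin against vehicle. In each comparison the share called, 10% to 20%, was under that of all genes. The adaptor Tada2a measured 12.3, 11.5 and 10.1 TPM with ampicillin and tributyrin, against 8.72, 8.24 and 8.17 TPM with vehicle. Each tributyrin library was above each vehicle library, and the rise of 0.39 ± 0.072 (adjusted p = 0.00570) held under every alternative. Against mock Tada2a was higher by 0.25 ± 0.072 (adjusted p = 0.0361), a call lost in 8 of 19 alternatives. Kat2b, an acetyltransferase that ATAC shares with SAGA, had -0.21 ± 0.059 with tributyrin against mock (adjusted p = 0.0339), a call lost in 9 of 19 alternatives, with adjusted p-values up to 0.115, which stood without tributyrin replicate 2. Mbip, with 0.26 ± 0.080 for ampicillin against vehicle (adjusted p = 0.0496), was lost in 15 of 19, with adjusted p-values up to 0.162, without ampicillin mock replicate 3.

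Of 19 subunits of the TIP60 and SRCAP complexes, to which Yeats4 belongs, 1 was higher and 1 lower with ampicillin against vehicle, 1 was higher and 2 lower with tributyrin against mock, and 3 were higher with ampicillin and tributyrin against vehicle. These are 10.5%, 15.8% and 15.8% of the list, under the shares of all genes. Actr6, an actin-related subunit of SRCAP, measured 4.85, 5.87 and 4.78 TPM with tributyrin, 3.55, 3.34 and 3.91 TPM with ampicillin and mock, and 3.80, 3.52 and 3.86 TPM with vehicle. It exceeded both other groups without overlap, by 0.42 ± 0.088 over mock (adjusted p = 0.0112) and 0.38 ± 0.088 over vehicle (adjusted p = 0.0143), in every alternative run. Mrgbp, a TIP60 subunit, measured 32.4, 28.1 and 31.1 TPM with tributyrin, 37.7, 42.3 and 40.6 TPM with ampicillin and mock, and 33.6, 25.7 and 30.1 TPM with vehicle. The mock libraries of Mrgbp were the highest of all 9. Its change was -0.39 ± 0.098 for tributyrin against mock (adjusted p = 0.0232), lost without tributyrin replicate 2 (0.0848), ampicillin mock replicate 2 (0.0821) or ampicillin mock replicate 3 (0.0634). For ampicillin against vehicle it was 0.43 ± 0.098 (adjusted p = 0.0156), lost without ampicillin mock replicate 2 (0.0612) or ampicillin mock replicate 3 (0.0512). Mbtd1, a TIP60 subunit that reads histone methylation, rose by 0.29 ± 0.066 with ampicillin and tributyrin against vehicle (adjusted p = 0.0134), a call lost only without tributyrin replicate 2 (0.0519). Morf4l1 (0.14 ± 0.044) in that comparison, Znhit1 (-0.17 ± 0.045) for tributyrin against mock and Dmap1 (-0.18 ± 0.052) for ampicillin against vehicle were called too, and lost the call in 12, 5 and 12 of 19 alternatives.

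Brd9 and Dpf2 are subunits of BAF family remodellers, of which 23 other subunits were tested. With ampicillin against vehicle 2 were higher, with tributyrin against mock 2 were lower, and with ampicillin and tributyrin against vehicle 0 were called by limma, with 3 at an unadjusted p under 0.05. The shares of 8.70%, 8.70% and 0% compare with 21.3%, 23.2% and 28.3% of all genes. The ATPase gene Smarca2 measured 15.8, 14.0 and 14.4 TPM with tributyrin, against 18.6, 20.9 and 21.5 TPM with ampicillin and mock. Like Brd9 it was lower with tributyrin without overlap, by -0.44 ± 0.10 (adjusted p = 0.0193). That call was lost without tributyrin replicate 2 (adjusted p = 0.0714), ampicillin mock replicate 2 (0.0668) or ampicillin mock replicate 3 (0.0629). Smarca2 was also higher with ampicillin and mock than with vehicle, by 0.35 ± 0.10 (adjusted p = 0.0444), which was lost in 13 of 19 alternatives. Unlike Brd9, Smarca2 was not called for ampicillin with tributyrin against vehicle, at -0.08 ± 0.10 (adjusted p = 0.582). Bcl7b had -0.29 ± 0.084 for tributyrin against mock (adjusted p = 0.0404), lost in 6 of 19, with adjusted p-values up to 0.1305, without ampicillin mock replicate 2. Brd7, the bromodomain subunit of the PBAF form, was higher with ampicillin against vehicle, at 40.3, 39.6 and 39.6 TPM against 32.5, 35.7 and 33.8 TPM (0.22 ± 0.061, adjusted p = 0.0328), and lost the call without any 1 of 5 libraries, with adjusted p-values up to 0.0979.

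Taf1 is the scaffold of TFIID, whose 15 other tested subunits had 1 call, higher, with ampicillin against vehicle, 3 higher with tributyrin against mock, and 4 higher with ampicillin and tributyrin against vehicle. The shares of 6.67%, 20% and 26.7% were under or near the 21.3%, 23.2% and 28.3% of all genes. Lower calls numbered 0, where 10.2%, 7.54% and 9.21% of all genes were called lower. Such shares are very few genes in a list of 15, so the lack of lower calls does not set TFIID apart. Taf9, a histone-fold subunit, measured 67.4, 62.6 and 66.0 TPM with ampicillin and mock, against 50.0, 51.9 and 49.0 TPM with vehicle. The groups did not overlap, and Taf9 rose by 0.37 ± 0.056 (adjusted p = 0.00219), while with tributyrin it stood at 61.3, 63.4 and 56.3 TPM, still 0.26 ± 0.056 above vehicle (adjusted p = 0.0116). Taf12, another histone-fold subunit, measured 34.1, 30.9 and 30.7 TPM with tributyrin, against 26.2, 27.3 and 26.0 TPM with ampicillin and mock, a rise of 0.26 ± 0.053 (adjusted p = 0.0106). Taf7, which restrains the acetyltransferase activity of TAF1, measured 5.71, 5.04 and 4.92 TPM with ampicillin and tributyrin, against 3.72, 3.94 and 3.60 TPM with vehicle, a rise of 0.39 ± 0.071 (adjusted p = 0.00553). These calls of Taf9, Taf12 and Taf7 held under every alternative run. Taf9b, the paralogue of Taf9, rose by 0.32 ± 0.079 with tributyrin against mock (adjusted p = 0.0211) and stood 0.37 ± 0.079 above vehicle (adjusted p = 0.00997), calls lost in 4 and 1 of 18 alternatives. Taf6 (0.27 ± 0.082, tributyrin against mock) and Taf12 (0.20 ± 0.053, ampicillin with tributyrin against vehicle) lost their calls in 12 and 7 of 19.

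Among 35 other tested genes with bromodomains or double PHD fingers, 4 were higher with ampicillin against vehicle, 2 were higher and 3 lower with tributyrin against mock, and 3 were higher with ampicillin and tributyrin against vehicle. These are 11.4%, 14.3% and 8.57% of the list, under the shares of all genes. Their medians of 0.08, 0.05 and 0.10 compare with 0.02, 0.05 and 0.08 over all genes. Zmynd8, a reader of acetylated histone tails that acts in transcriptional repression and DNA repair, measured 34.4, 40.1 and 38.1 TPM with tributyrin, 26.8, 26.4 and 26.7 TPM with ampicillin and mock, and 24.5, 29.7 and 29.2 TPM with vehicle. The tributyrin libraries exceeded all others, by 0.48 ± 0.081 over mock (adjusted p = 0.00478) and by 0.42 ± 0.081 over vehicle (adjusted p = 0.00678), in every alternative run. The calls with ampicillin against vehicle were Smarca2 and Brd7, given above, with Brpf3 (0.34 ± 0.090) and Baz2b (0.26 ± 0.069), lost in 6 and 7 of 19 alternatives. Baz2b, a subunit of ISWI-type remodellers, had -0.23 ± 0.069 with tributyrin against mock, lost in 12 of 19, and its relative Baz1b had 0.30 ± 0.079, lost in 6. Brwd1 (0.26 ± 0.066) and Trim33 (0.23 ± 0.065), the other calls for ampicillin with tributyrin against vehicle, were lost in 4 and 8 of 19.

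**Figure D4:**
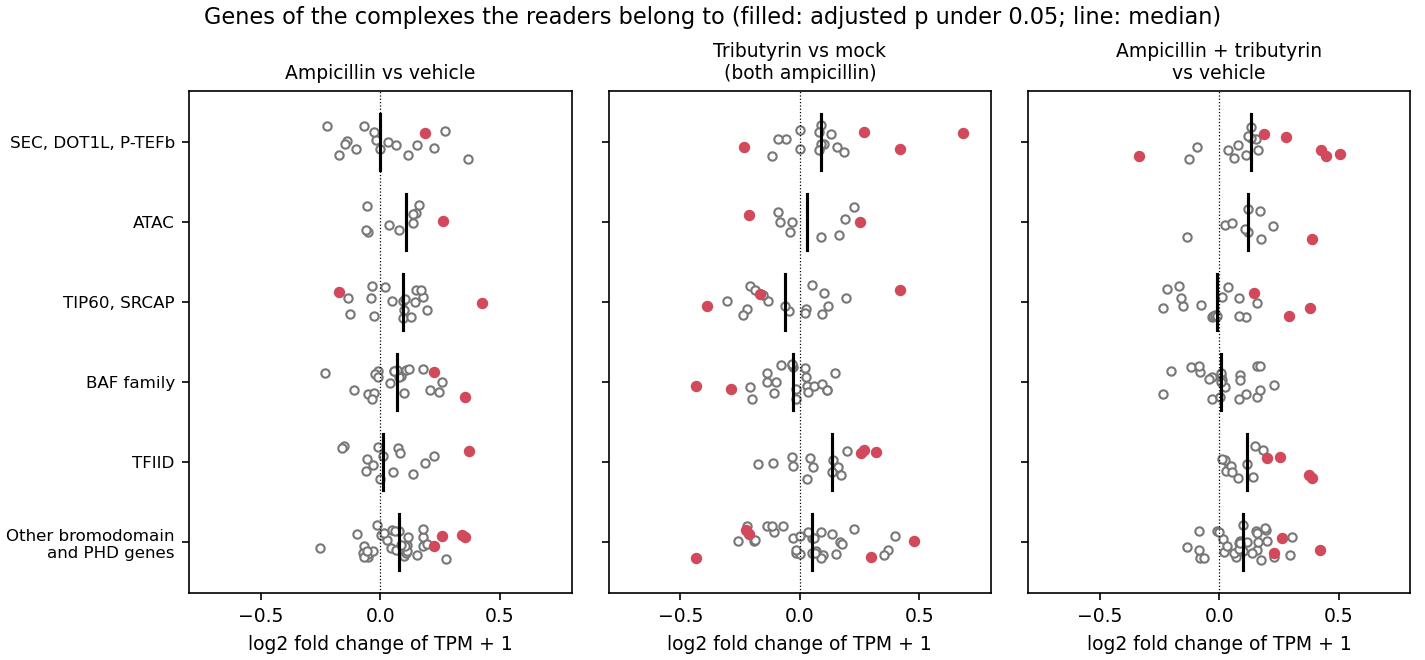
Log2 fold change of TPM + 1 (horizontal axes) of each tested gene of the 6 lists (rows) in the 3 comparisons, with filled points for an adjusted p under 0.05 and a black line at the median of the list. Medians lie between -0.06 and 0.13, and the few filled points of TFIID lie to the right of 0 in all 3 comparisons.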

How the data were processed

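RNA values of 9 libraries were used, with groups and replicate numbers taken from the sample titles. The deposited table holds TPM per gene, made by the authors. The build mm10 and the tools DESeq2 1.20.0 and Salmon 0.8.2 are named in the submitters' processing notes, without their roles. Index, annotation and strandedness were not given in the sources used here. TPM totals per library are 999833 to 999866, so depth is not kept and no counting error could be given.

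Genes with a mean of at least 1 TPM were tested (12155, with 11936 left out). In limma 3.58.1 (R 4.3.3), log2(TPM + 1) of the 9 libraries was modelled by group means with a variance trend, 6 residual degrees of freedom and no replicate block, and the script was tested on simulated data. Ratios were compared by exact permutation in Python 3.11.15 with numpy 2.4.6. Figures used matplotlib 3.10.9. Positions are whole genes of RefSeq GRCm38.p6, the assembly of mm10, to which 24045 of 24091 IDs matched. Alternatives were other filters, pseudocounts and scalings, array weights, no variance trend, 2 groups only, a replicate block, and each library left out.

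Named beside the readers were up to 4 called genes of each complex list by size of change, and the 3 genes of highest Pearson r with each called reader. The latter were sought among tested genes, leaving out small RNAs, predicted and unnamed genes and pseudogenes. Bicra, Bicral and Taf4a were read under their other symbols Gltscr1, Gltscr1l and Taf4, and Kat14, not matched by symbol, was not analysed here. Members, lists and tests were chosen with earlier results of these data known.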

Additional observations from a re-analysis of the deposited data

How the results depend on the processing

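Under 19 alternatives, 479 of 513 reader values kept their side of the threshold, 25 lost the call, 9 gained one and 0 called values changed sign. The fall of Brd9 with tributyrin against mock was the only reader call held under all 19. Of the 41 calls of partner genes that were named, at most 4 per list and comparison, 13 held throughout. In all, 2819 genes were called for tributyrin against mock, and 4271 with array weights. Quantile normalization, median-of-ratios scaling and array weights each gave 2 readers called for tributyrin against mock, and a fit to 2 groups only gave 1 for ampicillin with tributyrin against vehicle. Summed over the 3 comparisons, calls of the elongation and DOT1L list were 11, and 7 with median-of-ratios scaling and 6 with 2 groups only. ATAC calls were 4, and 1 without a filter, 10 with array weights and 2 with 2 groups only. TIP60 and SRCAP calls were 8, and 13 with median-of-ratios scaling and 13 with array weights. BAF calls were 4, and 10 with quantile normalization, 10 with median-of-ratios scaling and 9 with array weights. TFIID calls were 8, and 5 with a minimum mean of 5 TPM. Calls of other bromodomain genes were 12, and 24 with array weights. The causes were not tested.

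Leaving out 1 library in turn gave 1774 to 2810 genes called for ampicillin against vehicle, 1587 to 3011 for tributyrin against mock (fewest without tributyrin replicate 2) and 2093 to 3786 for ampicillin with tributyrin against vehicle (fewest without tributyrin replicate 2). Readers called were 0 to 2, 1 to 2 and 0 to 3 in these comparisons. List calls were 4 to 12 for elongation and DOT1L (fewest without tributyrin replicate 2), 1 to 5 for ATAC, 3 to 14 for TIP60 and SRCAP, 0 to 5 for BAF (0 without ampicillin mock replicate 2), 6 to 10 for TFIID and 4 to 17 for other bromodomain genes (fewest without ampicillin mock replicate 2).

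Pairing by replicate number was looked for in the deviations of libraries from their group means. Those of same-numbered libraries correlated at -0.05 to 0.108, over 0.1 in 1 of 9 pairs, and those of the 18 other pairs at -0.117 to 0.075. The highest values, 0.108, 0.092 and 0.086, were of same-numbered pairs. With 3 libraries a group, these correlations cannot show that the libraries are unpaired. With a replicate block, readers called numbered 2, 1 and 3 in the same comparisons, with Yeats2 lost (adjusted p = 0.0693) and Yeats4 gained (0.0458) for ampicillin with tributyrin against vehicle, and ATAC calls were 2. TPM keeps no depth, so what depth limits could not be assessed, and with 3 libraries a group small differences of the scarcest readers, such as Mllt3, may go uncalled.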
